A study of Rattus norvegicus with 12 samples.

Results

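The mitochondrial ribosome makes the few respiratory chain proteins that mitochondrial DNA encodes, while all of its own proteins are encoded in the nucleus and imported. Here its protein genes were taken as the genes whose symbol is Mrpl (large subunit) or Mrps (small subunit) followed by a number, each read from its probeset with a single gene symbol. This gave 72 of the 18166 genes measured, 45 of the large and 27 of the small subunit. None of them had a 2nd such probeset to choose from. All 72 were found by gene identifier in RefSeq for the rat genome GRCr8.

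RNA of total kidney from male Sprague Dawley rats was hybridized on Affymetrix Rat Gene arrays, with 3 arrays in each of 4 groups named CTL, W0, W1 and W5. CTL rats of the same age never received L-NAME, and the sources used here do not say whether they drank salt water. All other rats received L-NAME, an inhibitor of nitric oxide synthesis that raises blood pressure, at 15 mg/kg per day, with NaCl at 6 g/L in the drinking water, until urinary protein passed 1 g/mmol of creatinine. Kidneys were taken when L-NAME was stopped (W0), or 1 week (W1) and 5 weeks (W5) later, so the W1 and W5 rats had also passed that protein level first. The time a rat took to reach it varied. Ages are not given in the sources used here. The values are log2 levels, and a difference of 1 is a doubling. A gene was called changed when its Benjamini-Hochberg adjusted p, from limma over all genes, was under 0.05.

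Mitochondrial ribosomes are built around ribosomal RNAs from mitochondrial DNA, and their many proteins fall into those with a bacterial counterpart and those found only in mitochondria. In the kidney the cells of the proximal tubule and the thick ascending limb hold many mitochondria, since they reabsorb most of the filtered salt. In total kidney RNA, fewer cells of a type and less RNA per cell cannot be told apart.

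A principal component analysis of all genes separated the groups along its first axis (31.8% of the variance), with W0 and CTL at the ends. Along its second axis (14.7%), W0 replicate 1 (31.74) and W1 replicate 1 (-20.42) lay apart from the other 10 arrays, which ran from -10.88 to 11.40. The proximal tubule genes Lrp2 and Slc34a1 had mean log2 levels of 11.12 and 11.81 in CTL, on arrays whose values run from 1.52 to 12.89. Nothing in the sources used here gives scan dates or batches.

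W0 against CTL asks what differed at the peak of the disease. Most mitochondrial ribosome genes had lower means in W0, by a small amount each. Of the 72 members, 67 had a lower mean in W0 than in CTL (93.1%), against 51.1% of all genes. The median log2 difference was -0.28 over the members, -0.24 over the large subunit and -0.37 over the small, while over all genes it was -0.01. For 5 members the fall passed the limma test, 3 of the large subunit (Mrpl30, Mrpl16 and Mrpl48) and 2 of the small (Mrps33 and Mrps21l), and 0 members rose past it. That is 6.94% of the members, beside 4.41% of all genes called lower and 4.99% called higher in this comparison. Without adjustment, at a p under 0.05, 30 members were lower and 1, Mrps6, was higher, where 11% and 11.5% of all genes were. Leaving out CTL replicate 3 made the 30 into 10, while it was 14 when W0 replicate 1 was dropped and 19 for CTL replicate 2. The unadjusted shares of all genes in these reduced fits were not computed, and the 11% is that of the full fit. The methods' t-test gave 16 lower and 1 higher (8.38% and 8.89% of all genes), and 0 after adjustment. In 24 members every W0 array lay below every CTL array, and in 1, Mrps6, every W0 array lay above. Of all genes, 13.2% and 13.3% were separated in these ways.

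The share of members with a lower mean was alike in both subunits, with 42 of 45 in the large and 25 of 27 in the small. Array by array, the mean of the 72 members, each taken relative to its own CTL mean, was -0.43, -0.12 and -0.27 in W0 replicates 1, 2 and 3. In the CTL arrays it was -0.11, -0.01 and 0.12. W0 replicate 2 thus lay only just under the lowest CTL array, and W0 replicate 1 lay farthest away. W1 arrays gave -0.06, -0.23 and -0.10 and W5 arrays -0.42 (replicate 1), -0.30 (replicate 2) and -0.04 (replicate 3). W5 replicate 3 and W1 replicates 1 and 3 were inside the range of the CTL arrays. Over all genes, however, the mean was 0.12 in W1 replicate 1 and -0.03 to 0.03 in the other arrays. Only 34.9% of all genes were below their CTL mean in W1 replicate 1. The member means are not corrected for this, so the place of that array inside the CTL range is uncertain. The small subunit mean minus the large subunit mean ran from -0.09 to 0.03 and was below 0 in 9 of the 12 arrays. The CTL values of this difference are centred on 0 by construction. All other arrays share that CTL reference, so their signs are not independent.

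**Figure D1:**
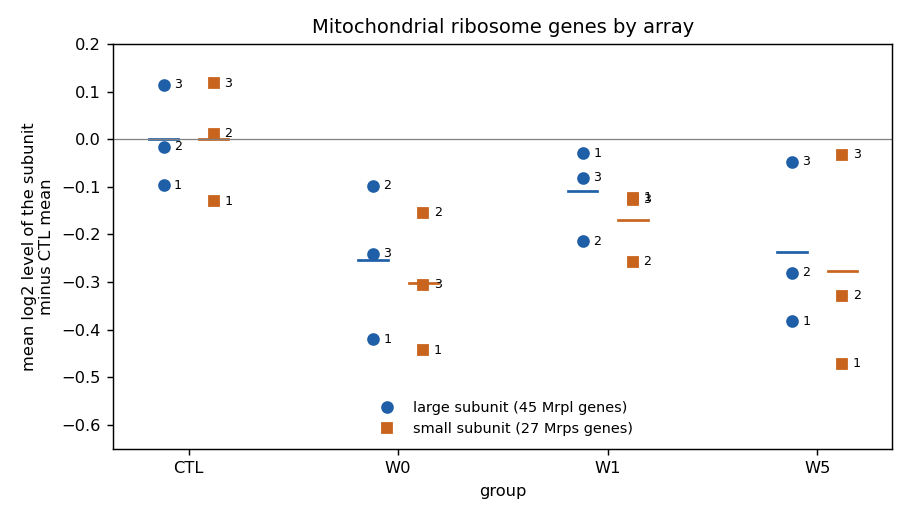
Mean log2 level of the large (circles) and small (squares) subunit genes in each array, relative to the CTL mean of each gene, by group. Each point is 1 array with its replicate number, and the bar is the mean of the group's 3 arrays. Both subunits lie lowest in W0 replicate 1 and W5 replicate 1, at -0.42 and -0.38 for the large and -0.44 and -0.47 for the small.

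The spread among CTL arrays was itself shared by the members. In CTL replicate 1, 57 of the 72 members were below their CTL mean, in replicate 2 it was 38 and in replicate 3 it was 7. In the W0 arrays 68, 51 and 66 members were below it. The corresponding shares of all genes were 39.2% to 56.6% in CTL and 48.9% to 52% in W0.

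In GRCr8 the called genes lie on chromosome 9 (Mrpl30, 47621226 to 47631986), chromosome 1 (Mrpl16, 218058439 to 218063251, and Mrpl48, 164308787 to 164370034), chromosome 4 (Mrps33, 69563501 to 69572317) and chromosome 18 (Mrps21l, 75687080 to 75687554). Mrpl30, a large subunit protein with a bacterial counterpart, had the smallest p of the members. Its log2 level was 8.58, 8.74 and 8.67 in CTL, 8.08, 8.13 and 8.17 in W0, 8.45, 8.30 and 8.52 in W1, and 8.29, 8.31 and 8.53 in W5. Every W0 array was below all 9 other arrays, and every W1 and W5 array was below every CTL array. The fall from CTL to W0 was 1.45-fold (log2 difference -0.54, 95% interval -0.78 to -0.30, limma adjusted p = 0.0074). At W1 the difference from CTL was -0.24 (limma adjusted p = 0.31) and at W5 it was -0.28 (limma adjusted p = 0.67), each with the same CTL arrays as reference. Mrpl30 was also the only member called by the moderated F test over the 4 groups (F = 7.91, limma adjusted p = 0.042). By that test 1 of 72 members was called, beside 6.72% of all genes. Without adjustment it was 15 members at a p under 0.05, beside 20.2% of all genes.

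Mrpl48 encodes a protein of the central protuberance, the part of the large subunit that touches the small subunit's head. It measured 8.60, 8.42 and 8.60 in CTL, 7.85, 8.18 and 8.10 in W0, 8.12, 8.27 and 8.23 in W1, and 8.31, 8.20 and 8.33 in W5. All 9 arrays of L-NAME treated rats were below the lowest CTL array. The log2 difference of W0 from CTL was -0.50 (95% interval -0.75 to -0.25, limma adjusted p = 0.016). Mrpl16 is the counterpart of a bacterial protein near the tRNA binding sites of the large subunit. Its levels were 8.23, 8.37 and 8.41 in CTL, 7.96, 7.84 and 7.71 in W0, 7.94, 7.81 and 8.08 in W1, and 7.99, 7.90 and 8.19 in W5. Here too all 9 later arrays were below every CTL array, and the difference of W0 from CTL was -0.50 (95% interval -0.76 to -0.24, limma adjusted p = 0.019).

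Mrps33 is a protein of the small subunit's head that is found only in mitochondria, and it had the lowest W0 difference of the 72 members. It measured 7.99, 8.18 and 8.51 in CTL, 7.15, 7.62 and 7.43 in W0, 7.69, 7.75 and 7.98 in W1, and 7.08, 7.41 and 8.04 in W5. All W0 arrays were below CTL, while the W5 arrays were spread, with replicate 3 inside the CTL range. The difference of W0 from CTL was -0.83 (1.77-fold lower, 95% interval -1.29 to -0.37, limma adjusted p = 0.027). At W5 it was -0.715 and was not called (limma adjusted p = 0.64).

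Mrps21l is annotated as a copy of Mrps21, and the probes of such close copies may share signal, so both values are uncertain. It read 6.80, 7.48 and 7.10 in CTL, 6.04, 6.62 and 6.45 in W0, 6.87, 6.59 and 6.96 in W1, and 6.24, 6.33 and 6.79 in W5. The W0 and W5 arrays were below CTL, the highest of W5 by 0.01. The W0 difference was -0.75 (95% interval -1.19 to -0.32, limma adjusted p = 0.031), beside -0.32 for Mrps21 itself (limma adjusted p = 0.28). The other copy, Mrpl41l1, differed by -0.52 (limma adjusted p = 0.11) and Mrpl41 by -0.24 (limma adjusted p = 0.53), and neither was called.

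**Figure D2:**
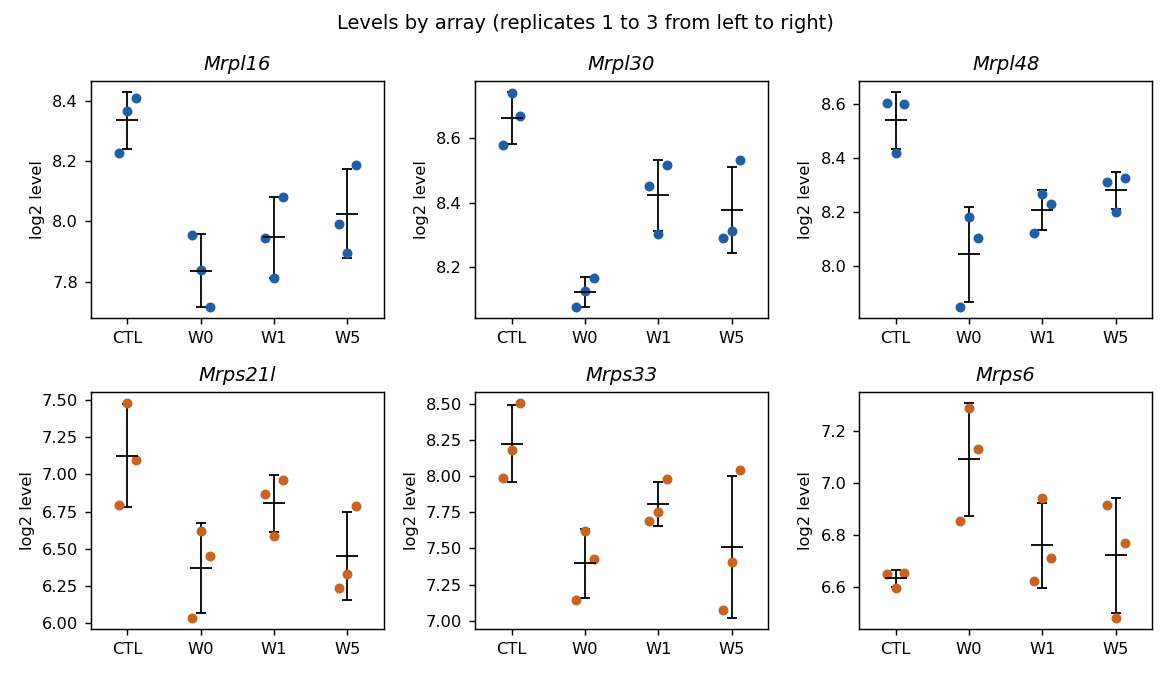
Log2 level in each of the 12 arrays for the 5 members called lower in W0 than in CTL, and for Mrps6. Points are arrays (replicates 1 to 3 from left to right), bars are the mean and SD of 3 arrays, and each vertical axis has its own range. Every W0 array lies below every CTL array for the 5 called genes and above for Mrps6.

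The stretch of DNA around the start of each gene was read from RefSeq windows of 300 bases (250 before and 50 after the start, GRCr8) since most members differed from CTL in the same direction. Windows were found for 58 of the 72 members, for 2 of them with several windows, which were counted once per gene. Letters were searched on both strands and by exact match, for motifs known from factors that act on mitochondrial genes. The core of the motif of ETS factors such as GABP, CCGGAA, was in the windows of 31 members (53.4%) beside 19.2% of 18999 protein-coding genes. The longer form CCGGAAGT, which contains it, was in 8 (13.8%) beside 5.13%. The YY1 motif AAGATGGCG was in 9 (15.5%) beside 2.33%, and the core GCATGCGC of the motif of NRF1 (nuclear respiratory factor) was in 5 (8.62%) beside 3.32%. A start of another gene on the opposite strand lay within 1000 bases, on either side, for 18 (31%) beside 8.16%. The median GC content was 55.8% beside 55.3%.

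The windows of the 3 called members that have one, and of Mrpl50, the lowest large subunit member in W1, show the range of these matches, which are in capitals. That of Mrpl30 (chr9:47620977-47621276, plus strand) holds 2 of CCGGAA, and its neighbour Mitd1 starts 194 bases away on the opposite strand. That of Mrpl48 (chr1:164351327-164351626, minus strand) holds CCGGAAGT, which contains 1 of its 3 matches to CCGGAA, and that of Mrps33 (chr4:69566889-69567188, minus strand) holds none. That of Mrpl50 (chr5:68668038-68668337, minus strand) has the YY1 motif 26 bases after the start. The windows of Mrpl48 and Mrps33 lie inside the annotated span of the gene. Mrpl16 and Mrps21l are among the 14 members for which no window was found.
Mrpl30: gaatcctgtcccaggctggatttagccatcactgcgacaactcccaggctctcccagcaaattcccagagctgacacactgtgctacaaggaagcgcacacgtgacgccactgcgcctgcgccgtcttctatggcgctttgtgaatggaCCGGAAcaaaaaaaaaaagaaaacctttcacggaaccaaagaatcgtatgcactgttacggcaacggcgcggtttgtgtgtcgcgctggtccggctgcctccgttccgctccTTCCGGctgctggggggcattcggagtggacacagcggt
Mrpl48: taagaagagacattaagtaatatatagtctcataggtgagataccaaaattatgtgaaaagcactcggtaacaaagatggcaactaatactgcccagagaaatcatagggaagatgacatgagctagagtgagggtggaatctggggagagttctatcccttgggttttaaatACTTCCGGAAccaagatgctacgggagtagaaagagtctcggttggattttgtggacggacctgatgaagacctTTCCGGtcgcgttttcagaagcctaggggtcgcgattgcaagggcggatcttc
Mrps33: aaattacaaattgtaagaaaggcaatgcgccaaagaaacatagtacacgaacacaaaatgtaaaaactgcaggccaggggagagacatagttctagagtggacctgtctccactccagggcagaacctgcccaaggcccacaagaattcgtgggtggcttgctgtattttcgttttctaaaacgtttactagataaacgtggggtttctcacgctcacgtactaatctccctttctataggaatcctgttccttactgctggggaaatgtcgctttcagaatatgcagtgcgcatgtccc
Mrpl50: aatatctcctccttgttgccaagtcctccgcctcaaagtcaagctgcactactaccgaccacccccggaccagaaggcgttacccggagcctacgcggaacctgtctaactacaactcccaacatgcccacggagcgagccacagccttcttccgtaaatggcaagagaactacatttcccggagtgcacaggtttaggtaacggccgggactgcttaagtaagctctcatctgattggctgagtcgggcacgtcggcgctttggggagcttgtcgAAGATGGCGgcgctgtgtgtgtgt

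Members with CCGGAA had a median log2 difference of -0.29 in W0 against CTL and those without it -0.27. With the YY1 motif it was -0.37 (9 genes) and without it -0.27, and with the NRF1 core it was -0.21 (5 genes) and without it -0.29. At W5 the medians with and without were -0.26 and -0.29 for CCGGAA, -0.19 and -0.27 for YY1 and -0.35 and -0.26 for the NRF1 core. The 15 measured genes that share a start region with a member and are not members themselves had a median of -0.01 in W0, beside -0.22 for those members. Mrpl46 and Mrps11 share 1 such region with each other and were left out of this. No test was made between these groups, and a match is not a site shown to be used.

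Mrps6, the counterpart of a bacterial protein of the small subunit's platform, stood out in the other direction. Its levels were 6.65, 6.60 and 6.65 in CTL, 6.86, 7.29 and 7.13 in W0, 6.63, 6.94 and 6.71 in W1, and 6.92, 6.48 and 6.77 in W5. The W0 arrays were above every CTL array, by a difference of 0.46 that did not pass the limma test (95% interval 0.15 to 0.77, adjusted p = 0.063). The other 4 members with a mean above CTL in W0 were Mrpl52 (0.13), Mrpl43 (0.09), Mrpl45 (0.05) and Mrps27 (0.05), with overlapping arrays.

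The 5 calls of W0 against CTL moved with single arrays. Without CTL replicate 3 only Mrpl30 was called lower (1.39% of the members, beside 2.63% of all genes). Without CTL replicate 2, W0 replicate 1 or W0 replicate 3 it was 2 members (2.78%, beside 3.2%, 3.63% and 2.87% of all genes). In these 4 fits the members were called lower no more often than all genes were. Without W0 replicate 2 it was 9 members (12.5%, beside 3.84%), and without CTL replicate 1 it was 6 members (8.33%, beside 2.77%). Without W0 replicate 1, Mrps6 was also called higher (0.58, limma adjusted p = 0.028). Mrpl30 was called in each of these fits. Without W0 replicate 1 and W1 replicate 1 together, 3 members were called lower (Mrpl16, Mrpl30 and Mrpl48) and Mrps6 was called higher (0.58, limma adjusted p = 0.025). The single call by the F test was lost without any 1 of CTL replicates 1, 2 and 3, W0 replicates 1, 2 and 3, W1 replicate 3 and W5 replicates 1 and 2, leaving 0, and it became 3 without W5 replicate 3. Shares of all genes called by the F test in these fits were not computed.

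The other 11 large subunit members whose W0 arrays were all below CTL had differences from -0.50 (Mrpl36) to -0.22 (Mrpl27). They were Mrpl36, Mrpl12, Mrpl18, Mrpl53, Mrpl50, Mrpl51, Mrpl20, Mrpl54, Mrpl44, Mrpl2 and Mrpl27. The other 8 of the small subunit were Mrps31, Mrps30, Mrps16, Mrps9, Mrps17, Mrps24, Mrps15 and Mrps26, from -0.48 (Mrps31) to -0.32 (Mrps26). None of these 19 was called. Mrps10 had the third lowest difference in its subunit (-0.55), but its arrays overlapped those of CTL.

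Several members have a known place in the ribosome. Mrpl12 and Mrpl10 form the stalk, which recruits translation factors. Mrpl12 was lower in W0 by a log2 difference of -0.47 (95% interval -0.80 to -0.13, limma adjusted p = 0.079), with no overlap of the arrays, and Mrpl10 differed by -0.12 (limma adjusted p = 0.65). Over the 6 members of the central protuberance the median was -0.24 (-0.25 at W5). It was -0.38 over 8 members of the small subunit's head, and -0.08 over 4 members at the exit of the peptide tunnel, where the new chain enters the inner membrane. These 4 were Mrpl22 (-0.37), Mrpl47 (-0.10), Mrpl23 (-0.06) and Mrpl45 (0.05), and at W5 their median was -0.26. These groups are small and no test was made between them.

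Among proteins that act on the tRNA or the messenger, Mrps12, of the decoding site, differed by -0.04 and Mrpl27, beside the site of peptide bond formation, by -0.22. Mrpl3 differed by -0.10, Mrps5 by -0.05, Mrps7 by -0.22 and Mrps14 by -0.28, all with overlapping arrays. Mrps16 and Mrps34, known in humans from inherited defects of mitochondrial translation, differed by -0.40 and -0.43. Every W0 array was below every CTL array for Mrps16 but not for Mrps34, and neither was called. Mrpl58, a hydrolase that frees stalled chains, differed by -0.13 and Mrpl44, which has the fold of an RNA-cutting enzyme, by -0.26. Mrpl36, a small protein with a bacterial counterpart, differed by -0.50 (limma adjusted p = 0.065). Mammals have several relatives of the bacterial protein S18, of which Mrps18c differed by -0.48, Mrps18b by -0.01 and Mrps18a by -0.05 in W0. At W5 the difference was -0.41, -0.36 and -0.14 in the same order, and every W5 array was below every CTL array for Mrps18b and Mrps18a but not for Mrps18c. None was called. Mrps18a and Mrps30 sit in the large subunit of the mammalian ribosome despite their names. Counting them there left the medians at -0.24 and -0.37.

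Members with a bacterial counterpart and members found only in mitochondria are described side by side. In W0 against CTL the median was -0.29 over the 39 with a counterpart and -0.26 over the 29 without. In each class 2 were called lower (5.13% and 6.9%, beside 4.41% of all genes). At W5 the medians were -0.27 and -0.26. The remaining 4 members were not sorted into either class.

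**Figure D3:**
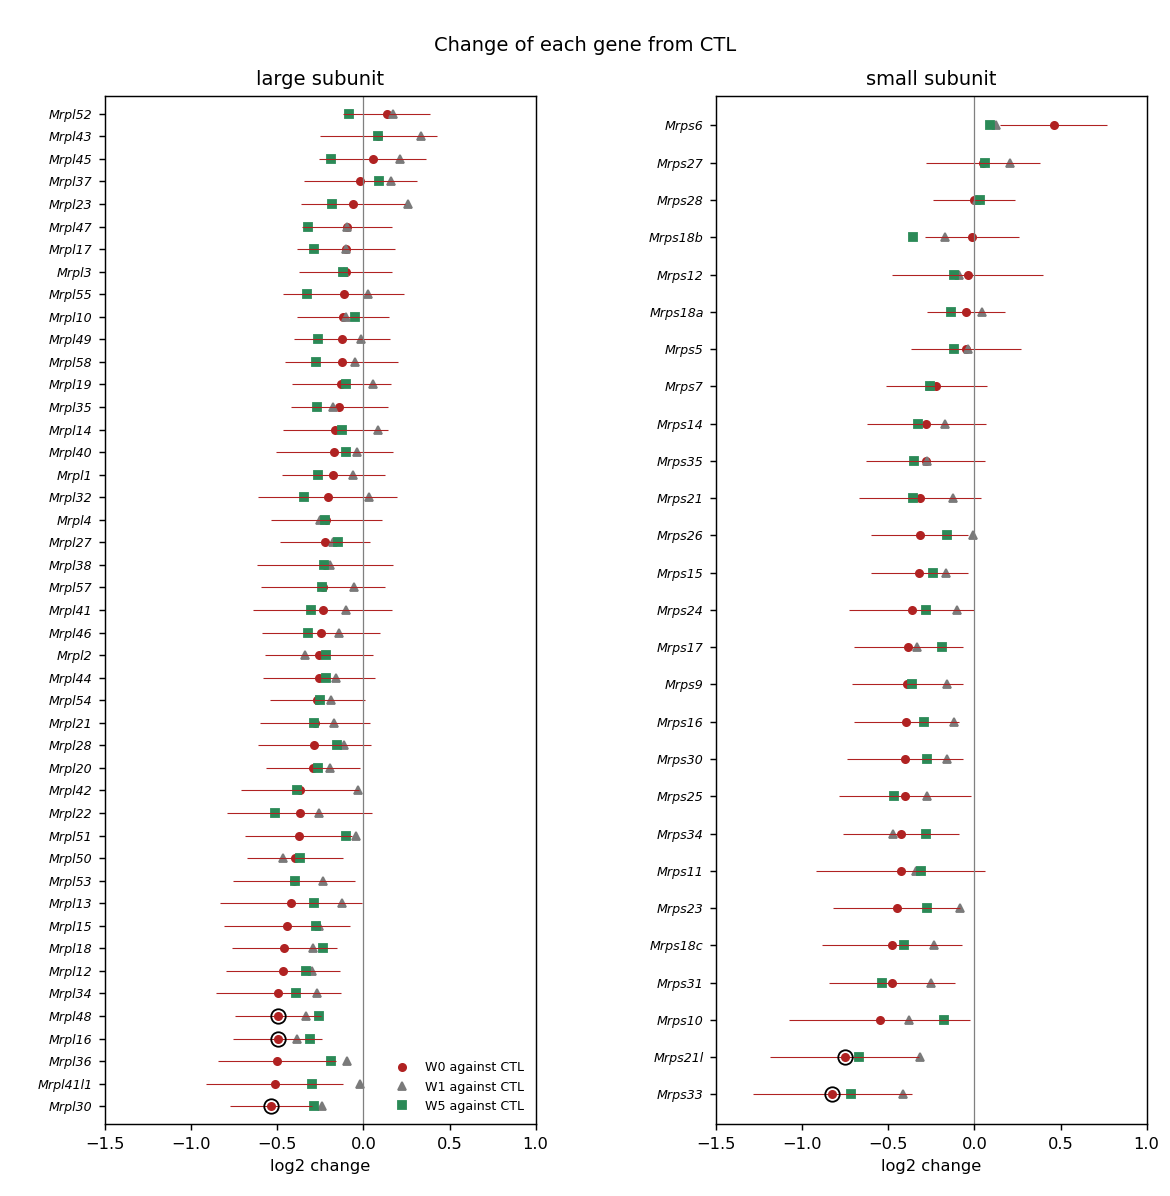
Log2 difference from CTL of every member in W0 (circles, with 95% interval), W1 (triangles) and W5 (squares), by subunit and ordered by the W0 value. Open rings mark the 5 members called in W0. Of the 72 members, 67 lie left of 0 in W0, 59 in W1 and 67 in W5.

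W1 against CTL asks what remained 1 week after L-NAME was stopped. In W1, 59 of 72 were below CTL, with a median of -0.13 (-0.11 for the large and -0.17 for the small subunit), while the median of all genes was 0.03. By limma 0 members were called, beside 0.787% of all genes called lower and 2.23% called higher. At an unadjusted p under 0.05, limma gave 7 members lower and 0 higher, and the methods' t-test gave 10 lower and 1 higher (5.01% and 8.64% of all genes). In 14 members every W1 array lay below every CTL array and in 2 (Mrpl52 and Mrpl23) every one lay above, beside 8.34% and 13.7% of all genes. Of all genes 5.62% were lower and 10.4% higher at the unadjusted threshold, and 44.7% had a lower mean. The lowest differences in the large subunit were those of Mrpl50 (-0.47, limma adjusted p = 0.075), Mrpl16 (-0.39) and Mrpl2 (-0.34), and in the small subunit those of Mrps34 (-0.47), Mrps33 (-0.42) and Mrps10 (-0.38). Mrpl50, which is found only in mitochondria, measured 7.49, 7.55 and 7.72 in CTL and 7.12, 7.08 and 7.15 in W1. Its 3 W1 arrays were closer together than those of any other group and all below CTL. The highest differences were those of Mrpl43 (0.33), Mrpl23 (0.26) and Mrpl45 (0.21), and of Mrps27 (0.21), Mrps6 (0.13) and Mrps18a (0.05).

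W5 against CTL asks the same 5 weeks after the stop. In W5, 67 of 72 were below CTL, where 53.9% of all genes were, with a median of -0.27 (-0.26 for the large and -0.28 for the small subunit) against -0.02 over all genes. By limma 0 members were called, and 0% of all genes were. At an unadjusted p under 0.05, limma gave 20 members lower, beside 4.18% of all genes, and 0 higher, beside 3.16%. The methods' t-test gave 4 lower and 0 higher (3.6% and 3.62% of all genes). By limma 11 were of the large and 9 of the small subunit, and by the t-test 4 and 0. The W5 arrays were uneven, with member means of -0.415, -0.298 and -0.042 in replicates 1 to 3. How the 20 moves without single arrays is not given here. In 13 members the W5 arrays were all below CTL, beside 7.44% of all genes, and in 0 members all above, beside 6.96%. The lowest were Mrps33 (-0.715), Mrps21l (-0.67) and Mrps31 (-0.54) in the small subunit, and Mrpl22 (-0.51), Mrpl53 (-0.40) and Mrpl34 (-0.39) in the large. Mrpl22, at the tunnel exit, measured 8.16, 8.02 and 8.06 in CTL and 7.11, 7.63 and 7.96 in W5. Mrps31, of the head, measured 7.52, 7.72 and 7.72 in CTL and 6.72, 7.13 and 7.50 in W5. In both, W5 replicate 1 was lowest and replicate 3 only just below CTL. The highest were Mrps6 (0.09), Mrps27 (0.06) and Mrps28 (0.03), and Mrpl37 (0.09), Mrpl43 (0.09) and Mrpl10 (-0.05).

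Between the later groups no member passed the limma test. From W0 to W1, 61 of 72 members were higher, with a median of 0.14 beside 0.04 over all genes. By limma 0 were called, beside 0.303% of all genes called lower and 0.226% higher. At an unadjusted p under 0.05, 7 were higher (7.02% of all genes) and 1 lower (4.15%), and the methods' t-test gave 1 higher and 0 lower (3.95% and 2.99% of all genes). In 6 members (Mrpl23, Mrpl30, Mrpl41l1, Mrpl42, Mrps30 and Mrps33) every W1 array was above every W0 array (8.42% of all genes) and in 0 below (5.54%), while 40.7% of all genes had a lower mean. Mrpl41l1 (0.50) and Mrps21l (0.44) had the highest differences and Mrps6 (-0.33) the lowest. From W0 to W5, 41 were higher and 31 lower, with a median of 0.03 beside -0.00 over all genes. By limma 0 were called, beside 3.17% of all genes called lower and 1.88% higher. At an unadjusted p under 0.05, 1 was higher (7.59% of all genes) and 2 lower (10.1%), and the methods' t-test gave 1 higher and 0 lower (6.12% and 8.47% of all genes). The 3 by limma were Mrpl30 (0.25), Mrps6 (-0.37) and Mrps18b (-0.35). Other members at the ends of this comparison were Mrpl36 (0.31), Mrpl51 (0.27), Mrpl45 (-0.24), Mrpl47 (-0.23), Mrpl52 (-0.22), Mrps10 (0.38), Mrps17 (0.19), Mrps23 (0.18) and Mrps18a (-0.09). Every W5 array was above every W0 array for Mrpl30 and Mrpl48 (10.4% of all genes) and below for Mrpl47 and Mrps18b (12.6%), and 50.5% of all genes had a lower mean. Mrps18b measured 8.20, 8.38 and 8.35 in CTL, 8.31, 8.38 and 8.21 in W0, 8.24, 7.98 and 8.20 in W1, and 7.72, 8.12 and 8.01 in W5. Its W0 arrays thus lay among those of CTL, and its W5 arrays were below both.

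From W1 to W5, 59 members were lower, with a median of -0.14 beside -0.05 over all genes. By limma 0 were called, beside 0.264% of all genes called lower and 0.022% higher. At an unadjusted p under 0.05, 5 were lower (8.31% of all genes) and 0 higher (3.07%), and the methods' t-test gave 3 lower and 0 higher (7% and 2.8% of all genes). The 5 were Mrpl23 (-0.44), Mrpl45, Mrpl42, Mrpl55 and Mrpl52. In 6 members every W5 array was below every W1 array (12.4% of all genes) and in 1, Mrps34, above (5.25%), while 60.1% of all genes had a lower mean. Mrpl23, at the tunnel exit, measured 8.79, 8.96 and 9.08 in CTL, 8.64, 9.10 and 8.90 in W0, 9.38, 9.10 and 9.12 in W1, and 8.66, 8.71 and 8.90 in W5. Its W1 arrays were above those of every other group, the lowest of them only just. These comparisons share arrays with those against CTL.

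Other lists of mitochondrial translation genes also had medians below 0 in W0. Of all genes, 4.41% were called lower by limma there and 11% were lower at an unadjusted p under 0.05. Of 14 translation factors (17 listed) 13 were below CTL, with a median of -0.24, 0 calls by limma and 5 lower at an unadjusted p under 0.05. Of 18 aminoacyl-tRNA synthetases and related enzymes 15 were below (median -0.12), and Gatb, a subunit of the enzyme that makes glutaminyl-tRNA, was called lower (-0.49, limma adjusted p = 0.038). Of 24 assembly factors 18 were below (median -0.16), with 0 called by limma and 3 lower at an unadjusted p under 0.05. The 5 ribosome proteins with other names, Dap3 among them, had a median of -0.27, with 0 calls by limma, 0 at an unadjusted p under 0.05 and 4 of 5 below CTL. Among 19 import genes Timm21 (-0.515, limma adjusted p = 0.0499) and Immp1l (-0.63, limma adjusted p = 0.017) were called lower. Among 18 genes of mitochondrial DNA and its transcription Hsd17b10, a part of mitochondrial RNase P, was (-0.58, limma adjusted p = 0.0066). These lists were below CTL at W5 as well. Their W5 medians were -0.22 for translation factors, -0.14 for synthetases and -0.13 for assembly factors. For ribosome proteins with other names it was -0.26, for import genes -0.21 and for mitochondrial DNA and transcription -0.19.

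The nuclear genes of the respiratory chain, whose partners the ribosome makes, had a median of -0.30 in W0, with 64 of 65 below CTL. Of these 12 were called lower (18.5%, beside 4.41% of all genes), Ndufv3 of complex I among them (-0.81, limma adjusted p = 0.0003). At W5 their median was -0.13. The proteins of the cytosolic ribosome had a median of 0.14 in W0, with 2 of 52, Rpl3 and Rps24, called higher (4.99% of all genes), and of -0.01 at W5. Of 11 regulators of mitochondrial genes 5 were below CTL, 2 of them at an unadjusted p under 0.05 (11% of all genes), and the median was 0.04. Among them Pprc1, a coactivator, rose by 0.76 (limma adjusted p = 0.0074) and Myc, a transcription factor of growing cells, by 1.76 (limma adjusted p = 0.0003). The genes of mitochondrial DNA itself were not analysed here.

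**Figure D4:**
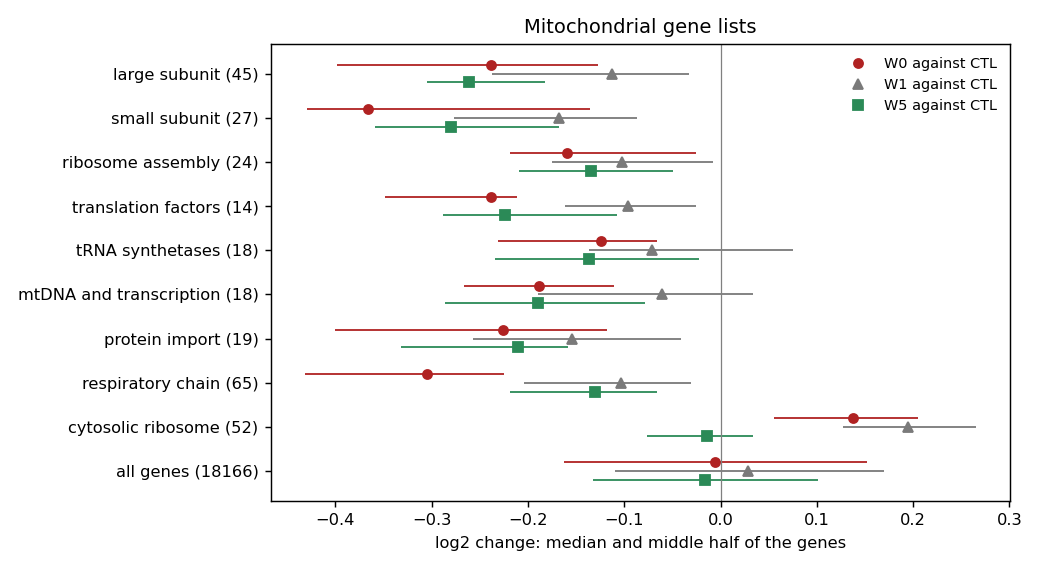
Median log2 difference from CTL over the genes of each list (symbols) with lines from the lower to the upper quartile, for W0, W1 and W5, with the number of genes in brackets. Both subunits have medians of -0.24 and -0.37 in W0 and -0.26 and -0.28 in W5, while the medians of all 18166 genes are -0.01 and -0.02.

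Cell type markers differed between the groups as well. Of all genes, 4.41% were called lower and 4.99% higher in W0, and 2.23% higher in W1. The mean of 14 proximal tubule markers (of 15 listed) relative to CTL was -0.68 to -0.40 in W0, -0.48 to -0.22 in W1 and -0.63, -0.06 and -0.04 in W5 replicates 1 to 3, with 7 called lower in W0. These markers did not all go one way, since 4 of the 14 had a higher mean in W0, 2 of them at an unadjusted p under 0.05, and the lowest, Slc7a13, differed by -2.32. In CTL their mean was -0.10 to 0.06. W5 replicate 1, low in the members, was thus also low in these markers. W5 replicate 2, at -0.30 in the members, was not. In W0 the markers were at -0.46, -0.40 and -0.68 in replicates 1 to 3, lowest in replicate 3, while the members were lowest in replicate 1. In W1 replicate 2 was lowest in the members (-0.23) and, only just, in the markers (-0.48). The 9 markers of the thick ascending limb and distal tubule were at -0.53 to -0.46 in W0, -0.35 to 0.01 in W1 and 0.00 to 0.23 in W5. The 9 macrophage markers were at 0.60 to 1.13 in W0 and 0.73 to 1.05 in W1, with 7 called higher each time, and at 0.11 to 0.21 in W5. The 4 fibroblast markers (of 5) were at 0.67 to 1.03 in W0, 1.12 to 1.43 in W1 and 0.70 to 0.78 in W5, and the 5 of injured tubules at 2.22 to 3.04, 1.303 to 2.483 and 0.54 to 0.75. Podocyte markers (4 of 5) were at -0.07 to 0.09 in W0, -0.29 to 0.07 in W1 and -0.15 to -0.10 in W5, and endothelial markers (3 of 5) at -0.03 to 0.28, 0.04 to 0.16 and -0.01 to 0.09. Not all markers of these lists went the way of their mean in W0. Of the 5 of injured tubules 1 had a lower mean and 3 were called higher, Havcr1 by 5.17. Of the 9 macrophage markers 1 had a lower mean, and of the 9 of the thick limb and distal tubule 2 had a higher one. Podocyte markers were split, with 2 higher and 2 lower, and endothelial markers with 1 higher and 2 lower. All 4 fibroblast markers were higher. The part of these shifts in the result for the members was not tested.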

How the data were processed

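The authors normalized the array fluorescence with RMA, and the deposited values, used as they are, are on a log2 scale for 20944 probesets and 12 arrays. The RMA software is not given in the sources used here. Only 18510 probesets name a single gene, and the others were left out. The brightest on average stood for each of the 290 genes that had several, which left 18166 genes. Apart from kidney markers, set beside the range of all values, levels were compared within a probeset.

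Groups, taken from the sample labels, entered 1 limma fit (limma 3.58.1, R 4.3.3) of all 12 arrays with no trend in the variance. A difference had a median standard error of 0.145 on 13.84 degrees of freedom. Adjusted p-values are Benjamini-Hochberg values over all genes. The methods' t-test (equal variances) was run alongside. The number of arrays limits precision, with 3 kidneys per group. The limma p-values set each difference against the spread within groups, estimated from all 12 arrays and drawn toward that of all genes. Those of the methods' t-test use only the groups compared. The study's groups held more rats than the arrays, and how those hybridized were chosen is not given in the sources used here. Highest and lowest levels were not named, since probesets are not comparable in level. The code was tested on simulated data. Named members were those called, the 3 highest and lowest of each subunit in W0, W1 and W5 against CTL and W5 against W0, and members of known role; others were named where a count called for it, after their values were seen. Members and lists were chosen with earlier results of these data known. Python 3.11.15, numpy 2.4.6, pandas 2.3.3 and matplotlib 3.10.9 were used for preparation and plots. Alternatives were centring, repeated quantile normalization, probeset rules, a filter on dim genes (lowest 25%), a variance trend, a replicate block, pairwise fits, leaving out arrays, subunits by structure and a threshold of 0.1.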

Additional observations from a re-analysis of the deposited data

How the results depend on the processing

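In W0 against CTL the 5 members called lower (4.41% of all genes) became 9 with arrays centred on their medians (5.57%), 10 after repeated quantile normalization (5.05%), 10 at an adjusted p under 0.1, 3 without W0 replicate 1 and W1 replicate 1 together (4.06%) and 0 by the methods' t-test after adjustment. It was 7 without the dimmest 25% of genes (6.72%), 6 with a variance trend (4.85%) and 4 in the pairwise fit (3.19%), which kept 3 of the 5. With single arrays left out it was 1 to 9, and the 30 lower without adjustment became 10 to 34. For these unadjusted counts the shares of all genes were not computed. The members called higher became 1 (Mrps6) with that filter on dim genes, without those 2 arrays together, at an adjusted p under 0.1 and, among single arrays left out, 0 to 1. In W1 against CTL 1 member (Mrpl50) was called lower after centring, after quantile normalization and at an adjusted p under 0.1. By the F test 2 were called after centring and with a variance trend, 0 without the 2 arrays together, and 0 to 3 with single arrays left out. In these alternatives the shares of all genes were not computed for members called higher, for W1, for the F test or for the 0.1 threshold. Mrpl30 stayed called in W0 under all alternatives except the methods' t-test (adjusted p = 0.065), with adjusted p from 0.0038 to 0.035. Over all genes 1708 were called in W0, 34 by the methods' t-test, and 1070 and 1137 without CTL replicates 1 and 2.

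With the replicate block 7 members were called lower in W0 (9.72%, beside 4.88% of all genes) and 2 were called by the F test. Arrays of the same number correlated at -0.04 to 0.17 in their deviations from the group means, over 0.1 in 7 of 18 pairs. Arrays of different numbers ran from -0.21 (W0 replicate 1 and W5 replicate 3) to 0.19 (W0 replicate 2 and W5 replicate 3). Few of these were over 0.1, so arrays of the same number leaned toward being alike, though not every array correlated best with its own number. The sources used here do not say whether the numbers stand for a pairing or a batch. The main fit did not use them, and their part in the results was not tested further.

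Signs near 0 turned in some fits. Without the 2 arrays together Mrps12 was at 0.0869 and Mrps28 at 0.0128 in W0. After quantile normalization Mrps18b was at 0.0148 in W0 and Mrpl10 at 0.0281 in W5, and after centring Mrps18a was at -0.0377 in W1. With single arrays left out, W0 differences ran from -0.0484 to 0.1352 for Mrpl45, -0.1811 to 0.1235 for Mrps12, -0.0993 to 0.0006 for Mrps18a, -0.068 to 0.0342 for Mrps18b, -0.0226 to 0.1473 for Mrps27, -0.0478 to 0.0739 for Mrps28 and -0.1612 to 0.0417 for Mrps5. W5 differences ran from -0.1275 to 0.0238 for Mrpl10, -0.0593 to 0.2338 for Mrpl37, -0.0575 to 0.1603 for Mrps27, -0.0154 to 0.1063 for Mrps28 and -0.007 to 0.2106 for Mrps6. The cause was not tested.

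Medians kept their sign against CTL with single arrays left out, from -0.33 to -0.17 (large) and -0.43 to -0.28 (small) in W0 and from -0.36 to -0.18 and -0.39 to -0.20 in W5. In W1 they ran from -0.18 to -0.07 and -0.23 to -0.09, from W0 to W1 from 0.05 to 0.23 for each, and from W1 to W5 from -0.22 to -0.04 and -0.24 to -0.06. From W0 to W5 they ran from -0.08 to 0.10 and -0.11 to 0.14. The number of arrays limits what could be called.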
